A study of Mus musculus with 8 samples.

Results

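Integrins are the cell surface receptors, each made of an alpha and a beta chain, that tie a cell to the matrix or to another cell. Laminins are secreted proteins of the basement membrane, each made of an alpha, a beta and a gamma chain. The genes described here are the integrin and laminin genes of a mouse basal cell carcinoma data set. They were taken by symbol: Itga or Itgb with a number or a letter, Itga2b, and Lama, Lamb or Lamc with a digit. Each gene was read by its probe set with the highest mean among those assigned to a single symbol. This gave 31 of the 17097 genes in the table: 10 epithelial integrins, 7 leukocyte integrins, 6 platelet and stromal integrins and 8 laminin chains. Itgb8, Itgad, Itga11, Lama4 and Lama5 were not analysed here.

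RNA was measured on 8 Affymetrix arrays from 4 mice, 2 given vismodegib and 2 untreated. Every mouse was K14-CreER/Ptch1cKO, so all groups carry a deletion of Ptch1, the receptor that restrains Smoothened, brought about by a Cre under the keratin 14 promoter, which is active in basal epidermal cells. Vismodegib inhibits Smoothened; the labels give neither its dose nor its duration, nor the age of the mice. Living cells of the back skin epidermis were stained for Lrig1 and split by a green fluorescent reporter of Lgr5, with no marker named that would remove leukocytes. The 4 groups were vismodegib Lgr5+ Lrig1+ cells, vismodegib Lgr5- Lrig1+ cells, untreated Lgr5+ Lrig1+ cells and untreated Lgr5- Lrig1+ cells, each from 2 mice, and the 2 populations of a treatment came from the same animals. By its title, the series is concerned with tumours that come back after treatment.

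In the epidermis, the integrin of the Itga6 and Itgb4 chains sits in hemidesmosomes and the integrin of the Itga3 and Itgb1 chains in focal contacts, and both bind the epidermal laminin, to which Lama3 and Lamb3 contribute. Lamc1 encodes the gamma chain of most other laminins, many of which hold the beta chain of Lamb1. Integrins with the Itgav chain, above all that with Itgb6, bind latent TGF-beta. Leukocytes carry integrins of their own, in which Itgb2 pairs with Itgal, Itgam, Itgax or Itgad.

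The values are log2 signals, and a log2 fold change is given ± its standard error from limma, with p-values adjusted by Benjamini and Hochberg over 14403 tested genes and a threshold of 0.05. A gene was tested if 2 or more arrays lay above 4.85, a dim level set at percentile 25 of the table. That was so for 29 of the 31 genes. Itgam passed it in 1 array and Itga8 in 0, and neither was tested. The 7 keratinocyte markers checked (Krt5, Krt14, Trp63, Krt15, Cdh1, Dsp and Perp) averaged between 11.74 and 12.12 in every array. Single markers moved within that mean: between the untreated populations 1 was higher in Lgr5+ cells, 1 lower and 5 did not pass. Krt15 stood at 11.12 and 11.34 in untreated Lgr5+ arrays, against 9.68 and 9.47 in untreated Lgr5- arrays. Cdh1 stood at 9.60 and 9.50 in untreated Lgr5+ arrays, against 10.20 and 10.22 in untreated Lgr5- arrays. Lgr5 was higher in the Lgr5+ than in the Lgr5- array of each mouse. Gli1, a target of Hedgehog signalling, fell by 3.52 after vismodegib in Lgr5+ cells and by 2.44 in Lgr5- cells. Each test rests on the spread between 2 mice a group. The levels of different genes are not comparable on an array, so only the same gene is compared between groups.

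Promoter windows are shown for Lamb1, the laminin gene with the largest differences below, for Itgb6, the epithelial integrin gene with the largest difference between the populations, and for Itgax, a leukocyte integrin gene that rose. RefSeq (GRCm38.p6) supplied a window of 300 bases around the annotated start for 20 of the genes. The windows lie at chr12:31265043-31265342 on the plus strand (Lamb1), chr2:60722554-60722853 on the minus strand (Itgb6) and chr7:128129300-128129599 on the plus strand (Itgax). Capitals mark matches on either strand to CCACCCA (the core read by GLI factors), TGANTCA (AP-1) or GAGGAA (PU.1).
Lamb1: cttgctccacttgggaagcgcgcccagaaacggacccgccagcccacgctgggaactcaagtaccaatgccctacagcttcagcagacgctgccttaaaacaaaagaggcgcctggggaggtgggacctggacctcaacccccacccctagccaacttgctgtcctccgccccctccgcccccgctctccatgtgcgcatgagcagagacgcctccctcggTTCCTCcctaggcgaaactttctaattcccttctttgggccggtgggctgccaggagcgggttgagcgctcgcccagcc
Itgb6: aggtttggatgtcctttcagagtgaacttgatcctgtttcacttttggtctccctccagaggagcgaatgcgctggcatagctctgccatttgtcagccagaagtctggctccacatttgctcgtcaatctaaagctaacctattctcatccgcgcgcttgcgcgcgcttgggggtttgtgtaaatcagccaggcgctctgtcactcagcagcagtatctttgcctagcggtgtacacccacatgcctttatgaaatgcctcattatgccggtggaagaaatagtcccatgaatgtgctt
Itgax: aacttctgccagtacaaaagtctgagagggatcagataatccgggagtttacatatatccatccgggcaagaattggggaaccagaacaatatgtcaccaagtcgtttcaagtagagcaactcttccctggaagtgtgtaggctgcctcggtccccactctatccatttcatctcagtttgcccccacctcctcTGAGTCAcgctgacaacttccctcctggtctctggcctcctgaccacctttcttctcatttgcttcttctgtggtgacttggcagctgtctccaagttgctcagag
The Lamb1 window held 1 PU.1 core, read on the other strand, the Itgax window held 1 AP-1 match, and the Itgb6 window held none of the 3 motifs. Over the 20 windows, 2 held the GLI core, 2 the AP-1 motif and 10 the PU.1 core. Of 32851 promoters of the same length, 9.3% held the GLI core, 7.81% the AP-1 motif and 28.3% the PU.1 core. Those promoters include every listed start of a gene and leave out no chromosome, where the 20 windows hold a single start per gene. The matches describe letters only.

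Of the 8 laminin chain genes, 3 fell in Lgr5+ cells after vismodegib, Lamb1, Lama3 and Lamc1, and the same 3 were higher in Lgr5+ than in Lgr5- cells of untreated mice. These comparisons share the untreated Lgr5+ arrays. The other 5, Lama1, Lama2, Lamb2, Lamb3 and Lamc3, did not pass the threshold in either. In bulk samples, fewer cells of a type and less RNA per cell cannot be told apart. The plot of the laminin genes shows every array.

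**Figure D1:**
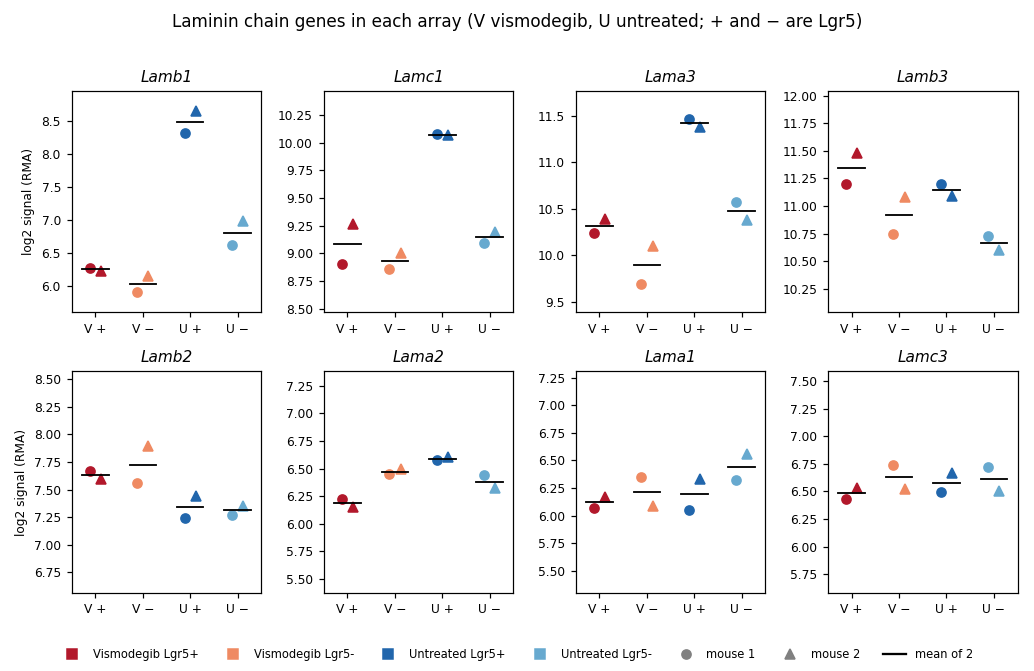
Log2 signal (y axis, own range for each gene) of the 8 laminin chain genes in each array, by group on the x axis (V vismodegib, U untreated, + and − for Lgr5); points are mice and lines the mean of 2. The untreated Lgr5+ arrays stand above all others for Lamb1 (8.33 and 8.66), Lamc1 (10.08 and 10.07) and Lama3 (11.47 and 11.38).

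Lamb1 stood at 6.28 and 6.22 in vismodegib Lgr5+ arrays, against 8.33 and 8.66 in untreated Lgr5+ arrays. It stood at 5.91 and 6.16 in vismodegib Lgr5- arrays, against 6.62 and 6.99 in untreated Lgr5- arrays. The groups did not overlap in either population, and the untreated Lgr5+ cells were the highest. Lamb1 fell by 2.24 ± 0.18 in Lgr5+ cells (adjusted p = 0.000497), a 4.73-fold lower signal. In Lgr5- cells the log2 fold change was −0.78 ± 0.18, which did not pass (adjusted p = 0.064). Between Lgr5+ and Lgr5- cells the difference was 0.22 ± 0.18 after vismodegib (95% interval −0.19 to 0.63), and in untreated mice Lamb1 was higher in Lgr5+ cells by 1.69 ± 0.18 (adjusted p = 0.00169). The test of the difference between the vismodegib effects gave −1.46 ± 0.25 (adjusted p = 0.0422). That call was lost without any 1 of 7 of the 8 arrays, the exception being the first untreated Lgr5+ array, with adjusted p-values up to 0.154. With both populations of a mouse as a block it held (adjusted p = 0.0268). Lamb1 was read here by a probe set type that can bind related transcripts. The other 3 Lamb1 probe sets, in a fit of all probe sets, gave −2.09, −2.73 and −1.90 for vismodegib in Lgr5+ cells, and 1.40, 1.87 and 1.17 for the populations of untreated mice, all past the threshold. For the difference between the vismodegib effects they gave −1.34 (adjusted p = 0.0185), −1.25 (adjusted p = 0.218) and −1.27 (adjusted p = 0.0671), so that 2 of the 3 did not pass. For vismodegib in Lgr5- cells they gave −0.75 (adjusted p = 0.0189), −1.48 (adjusted p = 0.0546) and −0.63 (adjusted p = 0.115), of which the first passed.

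Lamc1 stood at 8.91 and 9.27 in vismodegib Lgr5+ arrays, against 10.08 and 10.07 in untreated Lgr5+ arrays. In Lgr5- cells it stood at 8.86 and 9.0 after vismodegib and at 9.09 and 9.19 in untreated mice. The untreated Lgr5+ arrays were thus the only ones above 10 for this gene. Lamc1 fell by 0.99 ± 0.14 in Lgr5+ cells (adjusted p = 0.00597) and was higher in untreated Lgr5+ than Lgr5- cells by 0.93 ± 0.14 (adjusted p = 0.00654). Its change in Lgr5- cells was −0.21 ± 0.14 (adjusted p = 0.487), and the difference between the vismodegib effects, −0.77 ± 0.20, did not pass (adjusted p = 0.116). The other Lamc1 probe set gave −1.17 for vismodegib in Lgr5+ cells, 1.03 for the populations of untreated mice and −1.04 for the difference of the vismodegib effects (adjusted p = 0.0431).

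Lama3, the alpha chain of the epidermal laminin, stood at 10.25 and 10.39 in vismodegib Lgr5+ arrays, against 11.47 and 11.38 in untreated Lgr5+ arrays. In Lgr5- cells it stood at 9.69 and 10.10 after vismodegib and at 10.57 and 10.38 in untreated mice. The groups did not overlap in either population. Lama3 fell by 1.1 ± 0.16 in Lgr5+ cells (adjusted p = 0.00597), a call lost without the first vismodegib Lgr5+ array (−1.03, adjusted p = 0.0554). It was higher in untreated Lgr5+ than Lgr5- cells by 0.95 ± 0.16 (adjusted p = 0.00882), a call lost without the second untreated Lgr5- array (0.85, adjusted p = 0.0823). The Lama3 change in Lgr5- cells, −0.58 ± 0.16, did not pass (adjusted p = 0.109). The other Lama3 probe set gave −0.54 for vismodegib in Lgr5+ cells (adjusted p = 0.0432), 0.01 in Lgr5- cells (adjusted p = 0.968) and 0.48 for the populations of untreated mice (adjusted p = 0.0518).

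Lamb3, the beta chain that joins Lama3 in the epidermal laminin, stood at 11.20 and 11.48 in vismodegib Lgr5+ arrays and at 11.20 and 11.09 in untreated Lgr5+ arrays. The change was 0.20 ± 0.16, with a 95% interval of −0.17 to 0.56. Lamb3 was higher in the Lgr5+ than the Lgr5- array of each of the 4 mice, by 0.45 and 0.40 after vismodegib and by 0.47 and 0.49 in untreated mice. The untreated difference did not pass in the main fit (0.48 ± 0.16, adjusted p = 0.0764). It passed in limma with the mouse as a block (adjusted p = 0.0445) and with cyclic loess (0.60, adjusted p = 0.0424). Lama2, a chain known from muscle and nerve basement membranes, stood at 6.23 and 6.15 in vismodegib Lgr5+ arrays against 6.58 and 6.60 in untreated Lgr5+ arrays, a change of −0.40 ± 0.11 that did not pass (adjusted p = 0.0579, and 0.0443 without the filter). Lama1, Lamb2 and Lamc3 lay between 6.05 and 7.89 over all arrays and passed in 0 of the 5 tests.

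Over the 8 laminin genes the median log2 fold change for vismodegib was −0.25 in Lgr5+ cells and −0.10 in Lgr5- cells, beside −0.01 and 0.00 over all genes. Between Lgr5+ and Lgr5- cells it was 0.03 after vismodegib and 0.34 in untreated mice, beside −0.01 and 0.02 over all genes. In Lgr5+ cells 4.51% of all genes tested fell after vismodegib, beside 3 of the 8 laminin genes. In untreated mice 6.21% of all genes were higher in Lgr5+ cells, beside again 3 of the 8. In Lgr5- cells after vismodegib 0 of the 8 passed in limma, where 3 had an unadjusted p below 0.05 and 3.32% of all genes passed. Some dermal fibroblast markers moved with the laminin genes. Of the 7 listed, 3 were tested. Col3a1 passed the dim level in 1 array, and Lum, Pdgfra and Dpt lay at or below it in every array. The list averaged between 5.01 and 5.31. For vismodegib in Lgr5+ cells 0 of the 3 passed in limma, with 1 at an unadjusted p below 0.05 and a median of −0.38. Col1a1, a chain of type I collagen, stood at 6.96 and 7.19 in untreated Lgr5+ arrays, against 6.29 and 6.11 in untreated Lgr5- arrays, and was higher in Lgr5+ cells by 0.88 ± 0.17 (adjusted p = 0.0147). That call was lost without the first or second untreated Lgr5- array or the second untreated Lgr5+ array (adjusted p = 0.0561, 0.118 and 0.061). Dcn, decorin, stood at 6.68 and 7.06 in untreated Lgr5+ arrays, against 6.33 and 6.27 in untreated Lgr5- arrays, a difference of 0.57 ± 0.17 (adjusted p = 0.0586). Col1a2, the other tested marker, did not fall after vismodegib in Lgr5+ cells (log2 fold change 0.07). It differed by 0.15 between the untreated populations. The part of such cells in the laminin values was not tested.

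None of the 10 epithelial integrin genes passed the threshold for vismodegib in either population in limma, where 5 in Lgr5+ cells and 2 in Lgr5- cells had an unadjusted p below 0.05. Of all genes, 10.9% passed in Lgr5+ cells and 3.32% in Lgr5- cells. Between Lgr5+ and Lgr5- cells after vismodegib 0 of the 10 passed in limma, with 3 at an unadjusted p below 0.05 and 0.472% of all genes past the threshold (0.34% higher and 0.132% lower). In untreated mice Itgb6 was lower and Itga3 higher in Lgr5+ cells, where 10.9% of all genes were lower and 6.21% higher.

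**Figure D2:**
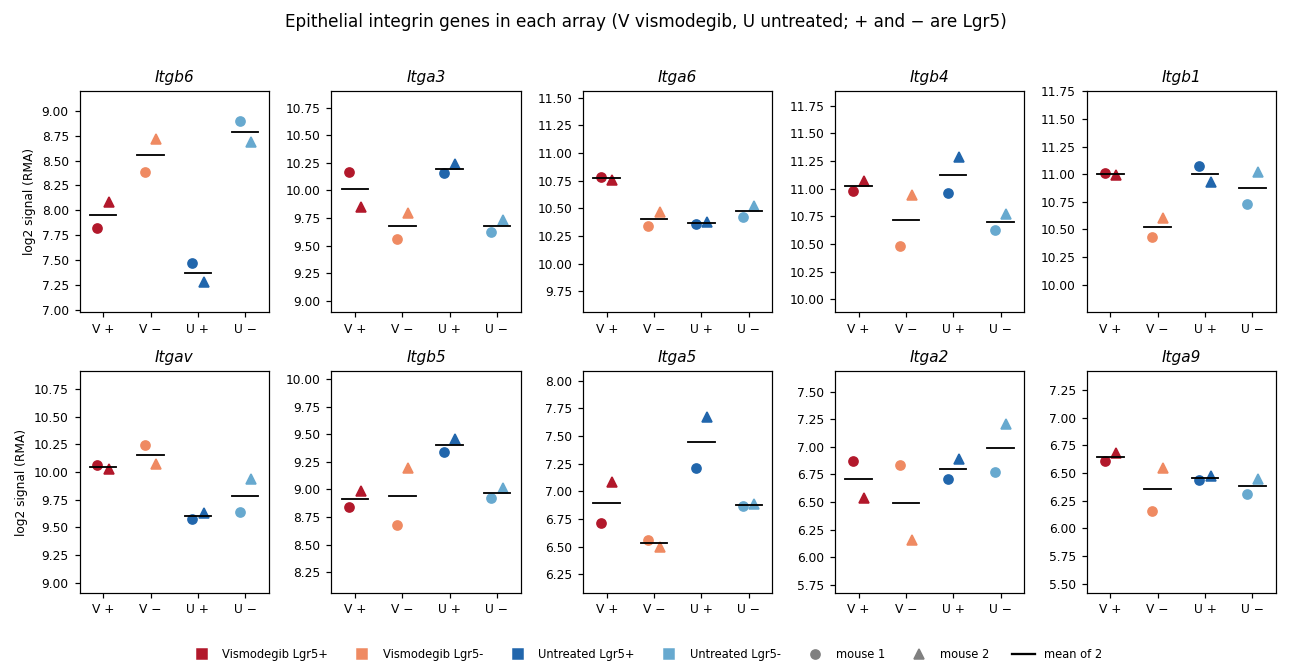
Log2 signal (y axis, own range for each gene) of the 10 epithelial integrin genes in each array, by group on the x axis (V vismodegib, U untreated, + and − for Lgr5); points are mice and lines the mean of 2. Itgb6 is lowest in the untreated Lgr5+ arrays (7.47 and 7.28) and Itga6 highest in the vismodegib Lgr5+ arrays (10.78 and 10.76).

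Itgb6, the beta chain of an epithelial receptor for latent TGF-beta, stood at 7.82 and 8.08 in vismodegib Lgr5+ arrays, against 8.39 and 8.72 in vismodegib Lgr5- arrays. In untreated mice it stood at 7.47 and 7.28 in Lgr5+ arrays, against 8.90 and 8.68 in Lgr5- arrays. Itgb6 was lower in the Lgr5+ array of each of the 4 mice. After vismodegib the difference was −0.60 ± 0.17 (adjusted p = 0.218). In untreated mice it was −1.41 ± 0.17 (adjusted p = 0.0024), a 2.67-fold lower signal in Lgr5+ cells, and it passed in every alternative fit run. The vismodegib effect was 0.58 ± 0.17 in Lgr5+ cells (adjusted p = 0.068) and −0.24 ± 0.17 in Lgr5- cells (adjusted p = 0.498), and the difference between these effects was 0.82 ± 0.23 (adjusted p = 0.137). The other Itgb6 probe set gave 0.70 for vismodegib in Lgr5+ cells (adjusted p = 0.0237) and −1.80 for the populations of untreated mice (adjusted p = 0.000833), with 1.22 for the difference of the vismodegib effects (adjusted p = 0.0471). Its alpha partner Itgav stood at 10.07 and 10.03 in vismodegib Lgr5+ arrays against 9.58 and 9.63 in untreated Lgr5+ arrays, a change of 0.44 ± 0.14 (adjusted p = 0.0829).

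After vismodegib Itga3 stood at 10.17 and 9.85 in Lgr5+ arrays, against 9.56 and 9.79 in Lgr5- arrays, a difference of 0.33 ± 0.15 (adjusted p = 0.422). It stood at 10.15 and 10.24 in untreated Lgr5+ arrays, against 9.63 and 9.73 in untreated Lgr5- arrays. The groups overlapped in neither treatment, and the untreated difference of 0.52 ± 0.15 lay at the threshold (adjusted p = 0.0499). The call was lost in 10 of 17 alternative settings. Among these were the mouse as a block (limma, adjusted p = 0.0753), no filter on dim genes and the intensity trend. It was also lost without any 1 of the 4 untreated arrays or the 2 vismodegib Lgr5+ arrays. Leaving out single arrays gave values between 0.47 and 0.57. In a limma fit of all probe sets the Itga3 probe set used here did not pass (adjusted p = 0.0555). The others gave 0.38 (adjusted p = 0.0928) and 0.51 (adjusted p = 0.0237).

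The hemidesmosome chains did not pass in any of the 5 comparisons as fitted here. Itga6 stood at 10.78 and 10.76 in vismodegib Lgr5+ arrays, against 10.35 and 10.38 in untreated Lgr5+ arrays, without overlap, and its change of 0.41 ± 0.11 lay just outside the threshold (adjusted p = 0.0569). It passed without the filter on dim genes (adjusted p = 0.0439) and with the mean of the Itga6 probe sets (0.44, adjusted p = 0.0311). In Lgr5- cells Itga6 changed by −0.07 ± 0.11 (95% interval −0.33 to 0.19). Itgb4 stood at 10.97 and 11.07 in vismodegib Lgr5+ arrays, within the range of the untreated Lgr5+ arrays at 10.96 and 11.29. Its change was −0.10 ± 0.18 (95% interval −0.53 to 0.33). Itgb1, the beta chain shared by most epithelial matrix receptors, changed by 0.00 ± 0.14 in Lgr5+ cells (95% interval −0.32 to 0.32) and by −0.35 ± 0.14 in Lgr5- cells (adjusted p = 0.222). The 7 tested partners of these receptors (Col17a1, Dst, Plec, Cd151, Cd9, Cd81 and Cd82) passed in 0 of the 5 comparisons in limma, with 3 at an unadjusted p below 0.05 for vismodegib in Lgr5+ cells.

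Itga5, which pairs with Itgb1 as a fibronectin receptor, stood at 6.72 and 7.08 in vismodegib Lgr5+ arrays, against 7.21 and 7.67 in untreated Lgr5+ arrays. The change of −0.54 ± 0.18 did not pass (adjusted p = 0.108), and it passed without the first untreated Lgr5+ array (−0.77, adjusted p = 0.0423). Itgb5, a partner of Itgav in a vitronectin receptor, changed by −0.48 ± 0.18 (adjusted p = 0.131, and 0.0418 without either vismodegib Lgr5- array). Itga2, a collagen receptor chain, and Itga9, a tenascin receptor chain, changed by −0.09 ± 0.25 and 0.19 ± 0.15 in Lgr5+ cells. Over the 10 genes the median log2 fold change for vismodegib was −0.05 in Lgr5+ cells and −0.05 in Lgr5- cells.

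**Figure D3:**
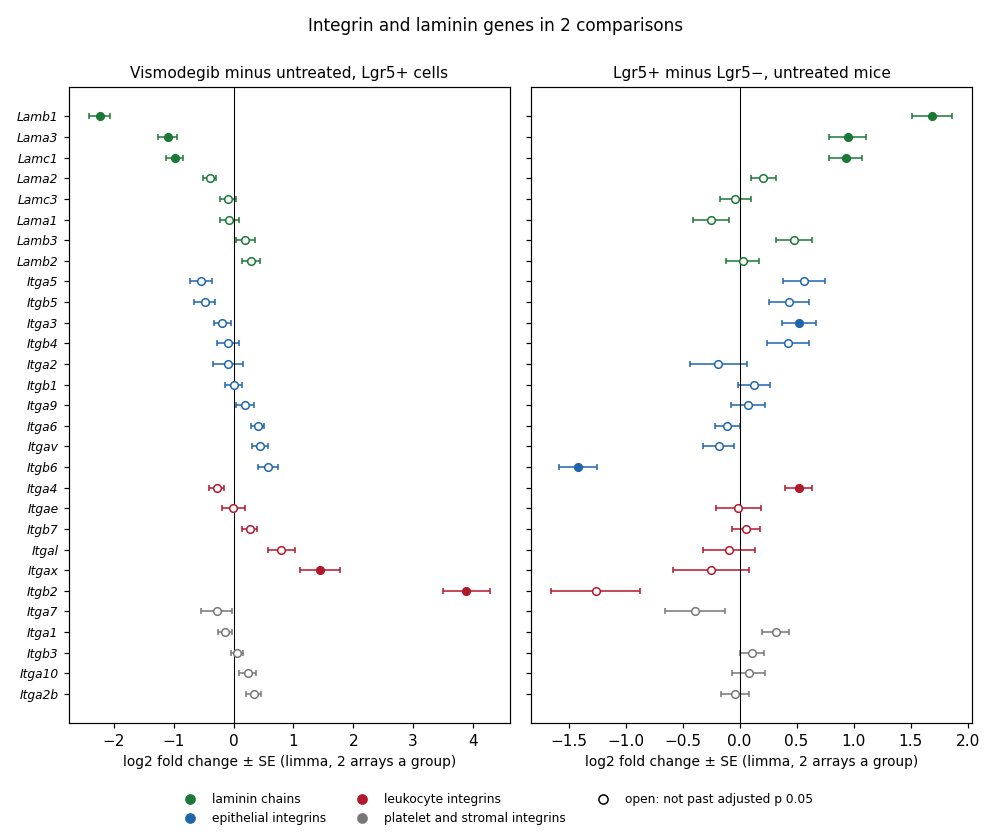
Log2 fold change ± SE from limma (x axis) of the 29 tested genes (y axis, grouped by class) for vismodegib minus untreated in Lgr5+ cells (left) and Lgr5+ minus Lgr5- in untreated mice (right); filled points passed adjusted p 0.05. The panels share the untreated Lgr5+ arrays, and Itgb2 (3.89) and Lamb1 (−2.24) are the farthest from 0 on the left.

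Among the leukocyte integrin genes, Itgb2 and Itgax rose in Lgr5+ cells after vismodegib, 2 of the 6 tested, where 6.37% of all genes rose. In Lgr5- cells 0 of the 6 passed in limma, with 2 at an unadjusted p below 0.05. In untreated mice Itga4 was higher in Lgr5+ cells. The plot of the leukocyte integrins sets them beside the mean of the macrophage markers.

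**Figure D4:**
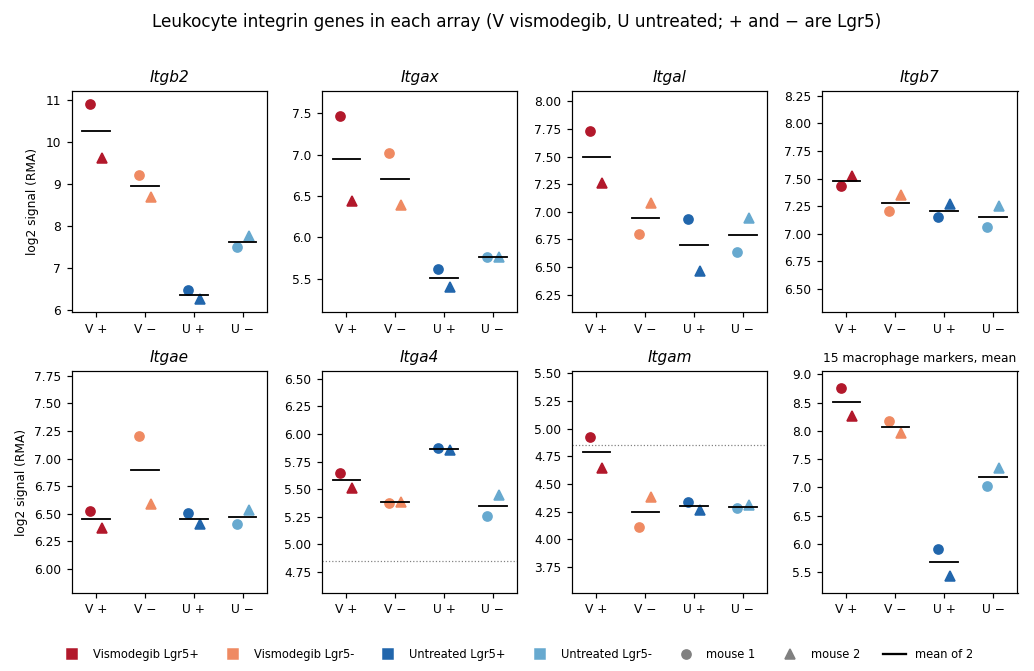
Log2 signal (y axis, own range for each panel) of the 7 leukocyte integrin genes and the mean of 15 macrophage, dendritic and Langerhans cell markers in each array, by group on the x axis (V vismodegib, U untreated, + and − for Lgr5); points are mice, lines the mean of 2 and the dotted line the dim level of 4.85. Itgb2 is highest in the vismodegib Lgr5+ arrays (10.91 and 9.60) and lowest in the untreated Lgr5+ arrays (6.48 and 6.25), as is the marker mean.

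Itgb2, the beta chain shared by the leukocyte adhesion receptors, stood at 10.91 and 9.60 in vismodegib Lgr5+ arrays, against 6.48 and 6.25 in untreated Lgr5+ arrays. In Lgr5- cells it stood at 9.22 and 8.68 after vismodegib, against 7.49 and 7.76 in untreated mice. The groups did not overlap in either population. Itgb2 rose by 3.89 ± 0.39 in Lgr5+ cells (adjusted p = 0.00114), a 14.8-fold higher signal, and changed by 1.32 ± 0.39 in Lgr5- cells (adjusted p = 0.122). It was higher in the Lgr5+ than the Lgr5- array of both vismodegib mice, by 1.69 and 0.92, and lower in both untreated mice, by −1.01 and −1.51. The difference between the vismodegib effects, 2.57 ± 0.55, did not pass (adjusted p = 0.0742), and it passed with the mouse as a block (adjusted p = 0.021), so that 2 genes in place of 1 then passed in this comparison, the other being Lamb1. The untreated population difference of −1.26 ± 0.39 did not pass in the main fit (adjusted p = 0.0644). It passed in limma with the block (adjusted p = 0.0114), with the filter at the median (adjusted p = 0.0461) and with only the arrays compared (adjusted p = 0.00917).

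Itgax, the alpha chain known from dendritic cells and macrophages, stood at 7.47 and 6.44 in vismodegib Lgr5+ arrays, against 5.62 and 5.40 in untreated Lgr5+ arrays. The groups did not overlap, and the vismodegib mice lay further apart than the untreated mice. Itgax rose by 1.45 ± 0.33 (adjusted p = 0.0331). The call was lost with only the arrays compared. It was also lost without the first vismodegib Lgr5+ array (0.93) and without any 1 of the 4 untreated arrays. In Lgr5- cells it changed by 0.94 ± 0.33 (adjusted p = 0.183). Itgal, the alpha chain of a lymphocyte and myeloid adhesion receptor, stood at 7.73 and 7.26 in vismodegib Lgr5+ arrays against 6.93 and 6.46 in untreated Lgr5+ arrays, a change of 0.80 ± 0.23 (adjusted p = 0.0667, and 0.0476 without the first untreated Lgr5+ array). Itgam, the alpha chain known from macrophages and neutrophils, passed the dim level in the first vismodegib Lgr5+ array (4.93) and lay between 4.11 and 4.65 in the other 7.

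Most of the markers of macrophages, dendritic cells and Langerhans cells moved with these genes after vismodegib in Lgr5+ cells. Of the 15 listed, 13 rose in Lgr5+ cells after vismodegib and 2 in Lgr5- cells, and 7 were lower in untreated Lgr5+ than Lgr5- cells. Of all genes, 6.37%, 1.26% and 10.9% did so in these comparisons. Their mean was 8.75 and 8.26 in vismodegib Lgr5+ arrays, against 5.92 and 5.44 in untreated Lgr5+ arrays. It was 8.18 and 7.96 in vismodegib Lgr5- arrays, against 7.02 and 7.34 in untreated Lgr5- arrays. None of the 15 was at or below the dim level in all arrays. Cd207, a Langerhans cell marker, stood at 5.70 and 6.05 in vismodegib Lgr5+ arrays, against 6.09 and 5.80 in untreated Lgr5+ arrays. Between Lgr5+ and Lgr5- cells after vismodegib, 10 of the 15 had a positive log2 fold change and 5 a negative one. Cd207, Cd74 and H2-Aa were lower in the Lgr5+ than the Lgr5- array of each of the 4 mice. Ptprc, the pan-leukocyte marker, stood at 7.74 and 6.86 in vismodegib Lgr5+ arrays, against 4.70 and 4.33 in untreated Lgr5+ arrays. The part of such cells in the values of Itgb2 and Itgax was not tested. Neutrophil and mast cell markers averaged between 4.50 and 4.66, with 5 of 7 (Cxcr2, Elane, Kit, Cpa3 and Mcpt4) at or below the dim level in every array. T cell markers averaged between 5.95 and 6.30. Between the untreated populations 1 of the 7 was lower in Lgr5+ cells, where 10.9% of all genes were, with 5 log2 fold changes negative and 2 positive. Cd3e stood at 5.10 and 4.81 in untreated Lgr5+ arrays, against 5.64 and 6.12 in untreated Lgr5- arrays.

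Itga4, which pairs with Itgb1 or Itgb7, moved otherwise. After vismodegib it stood at 5.65 and 5.51 in Lgr5+ arrays, against 5.37 and 5.39 in Lgr5- arrays. It stood at 5.88 and 5.86 in untreated Lgr5+ arrays, against 5.25 and 5.45 in untreated Lgr5- arrays, a difference of 0.52 ± 0.12 (adjusted p = 0.0258) at a level near the dim end. The call was lost with cyclic loess, with only the arrays compared and without any 1 of the 4 untreated arrays. Leaving out single arrays gave values between 0.42 and 0.61. The other Itga4 probe set above the dim level gave 0.48, which did not pass in limma (adjusted p = 0.0687). Itgae and Itgb7, the chains of a receptor of intraepithelial lymphocytes, passed in 0 of the 5 comparisons, with log2 fold changes for vismodegib of −0.01 ± 0.20 and 0.27 ± 0.12 in Lgr5+ cells.

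The 5 tested platelet and stromal integrin genes passed in 0 of the 5 comparisons in limma, with 1 at an unadjusted p below 0.05 in Lgr5+ cells and 2 in Lgr5- cells after vismodegib. Itga2b, the alpha chain of the platelet fibrinogen receptor, stood at 7.79 and 7.88 in vismodegib Lgr5+ arrays, against 7.51 and 7.5 in untreated Lgr5+ arrays. The change was 0.33 ± 0.12 (adjusted p = 0.133), and 0.41 ± 0.12 in Lgr5- cells (adjusted p = 0.123). Of the platelet markers, Pf4 rose by 3.91 ± 0.32 in Lgr5+ cells while Gp9 and Gp6 did not pass and Ppbp lay at or below the dim level in every array. Itgb3, its beta partner, lay between 5.20 and 5.42. Itga1 and Itga10, collagen receptor chains, lay between 5.31 and 6.36, and Itga7, a laminin receptor chain of muscle, between 5.75 and 6.98. Itga8 lay between 4.0 and 4.80, below the dim level throughout.

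Over all 29 tested genes, 5 passed for vismodegib in Lgr5+ cells, 0 for vismodegib in Lgr5- cells, 0 between Lgr5+ and Lgr5- cells after vismodegib, 6 between them in untreated mice and 1 for the difference of the vismodegib effects. Over all genes the shares were 10.9%, 3.32%, 0.472%, 17.1% and 1.4% in the same order. For the comparisons with 0, limma gave 9 genes at an unadjusted p below 0.05 in Lgr5- cells and 8 between the populations after vismodegib. Groups did not overlap for 21 of the 29 genes for vismodegib in Lgr5+ cells (54.8% of all genes) and for 17 in Lgr5- cells (51.4%). They did not overlap for 18 between the populations after vismodegib (43.7%) and for 18 in untreated mice (64.6%).

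The laminins are built into the basement membrane together with type IV collagens, nidogens and proteoglycans. Of 18 tested basement membrane partners, 9 fell and 2 rose in Lgr5+ cells after vismodegib, where 4.51% of all genes fell and 6.37% rose. In Lgr5- cells 7 fell and 1 rose, where 2.06% of all genes fell and 1.26% rose. The list was chosen with earlier results known. After vismodegib 2 of the 18 were higher in Lgr5+ than Lgr5- cells, where 0.34% of all genes were, and in untreated mice 13 were, where 6.21% of all genes were. The medians for vismodegib were −0.95 in Lgr5+ cells and −0.61 in Lgr5- cells.

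**Figure D5:**
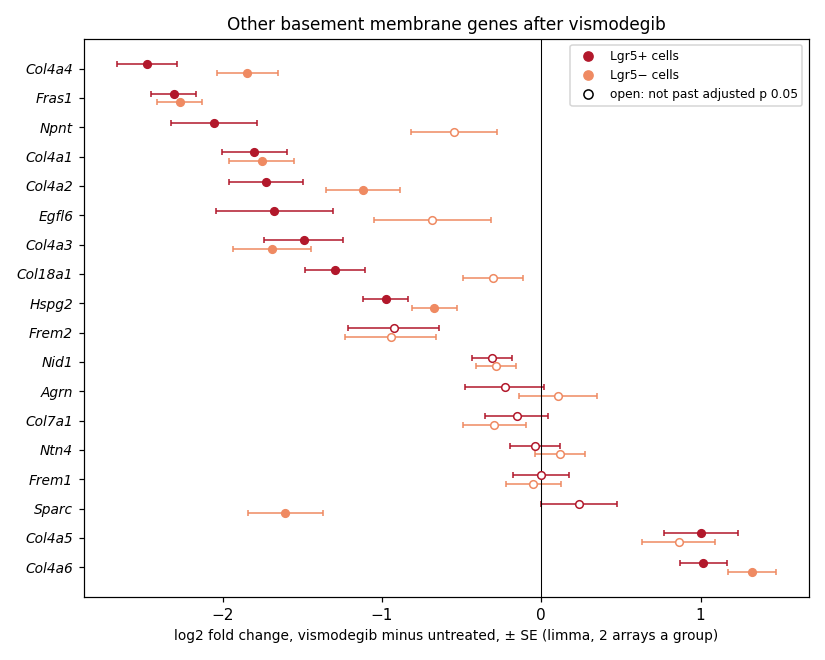
Log2 fold change ± SE from limma (x axis), vismodegib minus untreated, of the 18 tested basement membrane partners (y axis) in Lgr5+ and Lgr5- cells; filled points passed adjusted p 0.05. Col4a4, Fras1 and Col4a1 lie below −1.5 in both populations, and Col4a6 lies above 1 in both.

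Col4a4, a chain of type IV collagen, stood at 5.89 and 5.82 in vismodegib Lgr5+ arrays, against 8.36 and 8.31 in untreated Lgr5+ arrays. It fell by 2.48 ± 0.19 in Lgr5+ cells (adjusted p = 0.000452) and by 1.84 ± 0.19 in Lgr5- cells (adjusted p = 0.00428). Fras1, a protein that joins epidermal basement membrane to dermis, stood at 7.82 and 7.78 in vismodegib Lgr5+ arrays, against 10.27 and 9.95 in untreated Lgr5+ arrays. It fell by 2.31 ± 0.14 in Lgr5+ cells and by 2.27 ± 0.14 in Lgr5- cells. It was higher in Lgr5+ than Lgr5- cells by 2.27 ± 0.14 after vismodegib (adjusted p = 0.00183) and by 2.31 ± 0.14 in untreated mice (adjusted p = 0.000364). Npnt, a nephronectin that binds the integrin of Itga8 and Itgb1, stood at 8.68 and 9.27 in vismodegib Lgr5+ arrays, against 10.93 and 11.14 in untreated Lgr5+ arrays, and fell by 2.06 ± 0.27 (adjusted p = 0.00368). Col4a1 fell by 1.80 ± 0.21 in Lgr5+ cells. Col4a6, named after its values were seen because it moved the other way, rose by 1.02 ± 0.15 in Lgr5+ cells (adjusted p = 0.00597).

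Other partners were divided. Of 6 tested further laminin and matrix receptors, 1, Bcam, fell in Lgr5+ cells after vismodegib (−0.75 ± 0.16, adjusted p = 0.0261), a call lost without any 1 of 5 arrays (adjusted p up to 0.155), and 4 were higher in untreated Lgr5+ than Lgr5- cells. Of all genes, 4.51% fell and 6.37% rose in Lgr5+ cells after vismodegib, and 6.21% were higher in untreated Lgr5+ cells. Of 20 tested genes of integrin activation and focal adhesions, 3 fell and 3 rose in Lgr5+ cells (4.51% and 6.37% of all genes). Fermt2, a kindlin that activates integrins, fell by 1.54 ± 0.20 (adjusted p = 0.00352), and Tns1, a tensin that links integrins to actin, rose by 1.19 ± 0.16 (adjusted p = 0.00438). Of 14 tested other integrin ligands, 2 fell and 4 rose in Lgr5+ cells (4.51% and 6.37% of all genes). Tnc, a tenascin bound by Itga9 and Itgav receptors, rose by 2.41 ± 0.17 in Lgr5+ cells (limma, adjusted p = 0.000333). It stood at 8.83 and 9.08 in vismodegib Lgr5+ arrays, against 6.39 and 6.71 in untreated Lgr5+ arrays. In Lgr5- arrays Tnc did not rise, at 8.56 and 8.40 after vismodegib, against 8.93 and 9.22 in untreated mice. Tgfb3, whose latent protein is a ligand of the integrin of Itgav and Itgb6, stood at 7.51 and 7.88 in vismodegib Lgr5+ arrays, against 10.84 and 10.34 in untreated Lgr5+ arrays, and fell by 2.89 ± 0.21 (adjusted p = 0.000346). Fn1, fibronectin, rose by 2.37 ± 0.38 (adjusted p = 0.0082), with 8.39 and 7.0 in vismodegib Lgr5+ arrays against 5.23 and 5.43 in untreated Lgr5+ arrays. Most of the macrophage, dendritic and Langerhans cell markers given above also rose in Lgr5+ cells after vismodegib. The part of such cells in the value of Fn1 was not tested.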

How the data were processed

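RNA from 4 groups of sorted cells was measured on 8 arrays, 1 per population and mouse. Per the submitters' processing notes the authors used RMA (version not stated), and its log2 signals were taken as deposited. The 45141 probe sets comprised 104 controls, 28898 with a single gene symbol, 551 with more than one and 15588 unnamed; array medians lay between 6.13 and 6.20. A single limma model (limma 3.58.1, R 4.3.3) held a mean for each group; lmFit and eBayes gave two-sided p-values on 4 residual plus 3.53 prior degrees of freedom, adjusted by Benjamini and Hochberg over 14403 genes. The fit was tested on simulated data. The number of arrays limits the precision.

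The named genes are every integrin and laminin gene, and up to 4 members of each partner list with the largest change among those past the threshold, of which the text names part. The members and lists were chosen with earlier results of these data known. The motifs were likewise chosen with earlier results known, and all 3 that were searched are reported. A motif that had been set aside after its match was seen was put back.

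Both populations of a mouse share an animal, so the mouse pairs them. Across genes, deviations from group means correlated at 0.211 between the arrays of a vismodegib mouse and 0.142 for an untreated mouse. Mouse numbers across treatments mark different mice (0.00964 in Lgr5+ and −0.107 in Lgr5- cells). Alternatives were no filter, a filter at the median, the mean of probe sets, cyclic loess, an intensity trend, only the arrays compared, a replicate block and leaving out each array.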

Additional observations from a re-analysis of the deposited data

Results flagged for a closer look

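The vismodegib effect on Lamb1 differed between the populations in an interaction test: the change in Lgr5+ cells minus that in Lgr5- cells was −1.46 ± 0.25 (limma, adjusted p = 0.0422). The change was −2.24 in Lgr5+ cells and −0.78 in Lgr5- cells, and Lamb1 was lower after vismodegib in the arrays of both populations. The call was lost in 10 of 17 alternative settings: without the filter, without any 1 of 7 of the 8 arrays, and with 2 of the 3 other Lamb1 probe sets (adjusted p up to 0.218). The value stayed between −1.65 and −1.25 in those 17 settings. No further integrin or laminin gene met this test, and groups of 2 arrays were not tested for outliers.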

How the results depend on the processing

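Of 194 alternative values of the 12 integrin and laminin calls, 158 stayed past the threshold, 36 did not, and 0 changed sign. The calls of Itgb2, Lamc1 and Lamb1 for vismodegib in Lgr5+ cells, and of Lamb1, Lamc1 and Itgb6 between the untreated populations, held in every alternative run. Without the filter, 0 integrin and laminin genes passed for the difference of the vismodegib effects, and 36 of all genes passed between the populations after vismodegib. With the mean of the probe sets, 8 integrin and laminin genes passed for vismodegib in Lgr5+ cells, 1 in Lgr5- cells (Lamb1, −0.91) and 3 for the difference of the effects. With only the arrays compared, 234 of all genes passed for vismodegib in Lgr5- cells and 11 between the populations after vismodegib. With the mouse as replicate block, 2 integrin and laminin genes passed for the difference of the effects (Lamb1 and Itgb2), 105 of all genes passed between the populations after vismodegib, and the block otherwise changed only the calls of Itga3, Itgb2 and Lamb3 in untreated mice among these genes. With the mouse number as block, which joins different mice, 5 and 0 integrin and laminin genes passed for vismodegib in Lgr5+ and Lgr5- cells, and 1470 and 357 of all genes. Leaving out each array gave between 3 and 6 of these genes for vismodegib in Lgr5+ cells (3 without the first vismodegib Lgr5+ array) and between 0 and 1 in Lgr5- cells (Itgb2, without either vismodegib Lgr5+ array). It gave between 3 and 7 between the untreated populations (3 without the second untreated Lgr5- array), and between 0 and 1 for the difference of the effects (Lamb1 without the first untreated Lgr5+ array, Itgb2 without the second vismodegib Lgr5+ array). Over all genes it gave 543 to 1823 for vismodegib in Lgr5+ cells, 65 to 523 in Lgr5- cells, 18 to 107 between the populations after vismodegib, 582 to 2852 between them in untreated mice and 2 to 251 for the difference of the effects. A group left with 1 array was assumed to vary like the others. The cause of these moves was not tested. Cyclic loess moved the share of calls that were higher in Lgr5+ cells after vismodegib by less than 10 percentage points.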
